A study of Mus musculus with 12 samples.

Results

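The 32 genes described here encode the enzymes and transporters that take long-chain fatty acids into mitochondria and oxidise them there, with a few genes that set the pace of that pathway. They were chosen by name and were all found by symbol among the 43629 gene identifiers of the count files. Reads per gene had been counted in 12 RNA sequencing libraries from C57BL/6 mice, with 4 groups of 3 libraries. Group E was embryonic fibroblasts that had carried an empty vector for 3 weeks. Group GHMT was fibroblasts 3 weeks after the cardiac transcription factors Gata4, Hand2, Mef2c and Tbx5, and group AGHMT was fibroblasts that by their label had received these 4 factors and Akt1 for as long. Cells of GHMT and AGHMT were sorted on green fluorescence from a reporter under the Myh6 (cardiac alpha-myosin) promoter. Group CM was isolated ventricular cardiomyocytes of adult mice. The labels name no sort for E or CM, so what the factors did and what the sort did cannot be told apart. Whether the 3 libraries of a group came from separate cultures or animals is nowhere stated, so every p-value measures only the spread between these libraries, which may be technical.

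A long-chain fatty acid is activated to its acyl-coenzyme A, handed to carnitine for transport across the inner mitochondrial membrane, and then shortened in rounds of dehydrogenation, hydration, a second dehydrogenation and thiolysis. The flavoprotein dehydrogenases pass their electrons through the electron transfer flavoprotein and its dehydrogenase to ubiquinone. The adult heart draws most of its energy from this pathway, while fibroblasts in culture lean on glycolysis. Nuclear receptors of the PPAR and ERR families, with the coactivator encoded by Ppargc1a, drive its genes through copies of the hexamer AGGTCA.

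Promoter sequence of 3 loci is shown here, since Acadm and Ucp3 are among the genes with large differences below and Hadha and Hadhb share a single intergenic gap while their fitted changes between GHMT and E had opposite signs, with limits given below. The sequences are from RefSeq on GRCm38.p6, 5′ to 3′ on the strand of the gene, and the capitals mark AGGTCA read on either strand. The stretch of Acadm is chr3:153944644-153944893 (minus strand), that of Ucp3 is chr7:100472741-100472989 (plus strand), and the gap between Hadha and Hadhb is chr5:30155163-30155247 (written on the strand of Hadhb), 85 bases with 69.4% G and C.
Acadm: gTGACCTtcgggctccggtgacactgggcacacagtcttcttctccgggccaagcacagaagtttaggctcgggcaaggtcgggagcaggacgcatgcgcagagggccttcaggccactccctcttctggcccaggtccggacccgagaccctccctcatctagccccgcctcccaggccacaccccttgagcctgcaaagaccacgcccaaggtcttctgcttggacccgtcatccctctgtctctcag
Ucp3: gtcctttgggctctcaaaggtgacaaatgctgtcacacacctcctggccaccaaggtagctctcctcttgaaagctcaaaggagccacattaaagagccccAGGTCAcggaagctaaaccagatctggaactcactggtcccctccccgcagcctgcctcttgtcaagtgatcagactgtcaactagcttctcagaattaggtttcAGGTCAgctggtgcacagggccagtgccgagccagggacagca
Hadha-Hadhb: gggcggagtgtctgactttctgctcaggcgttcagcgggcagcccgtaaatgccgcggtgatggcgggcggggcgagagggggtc
Of the 32 genes, 26 had a promoter entry, with 27 entries in all, each from 250 bases before to 50 bases after a start. AGGTCA, on either strand, was in 6 of the 27 (22.2%), those of Acacb, Acadm, Acadvl, Cpt1a, Echs1 and Ucp3, against 16.3% of all 32851 promoters. The longer AAGGTCA, which contains AGGTCA, was in 2 of 27 (7.41%), Acacb and Acadm, against 4.72% of all. Neither TCAAGGTCA (0.423% of all promoters), which contains both, nor the direct repeat AGGTCANAGGTCA (0.0396%) was found in the 27. These counts describe the letters in these windows only.

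Depth and library make-up touched every result. GHMT was shallow, with 1872558 to 2200815 reads in genes per library. AGHMT libraries held 14386407 to 18493989, CM libraries 5120230 to 15952646 and E libraries 15971154 to 33552138. Of the reads in genes, 27.8% to 72.2% came from the mitochondrial genome in GHMT, 36.6% to 42.7% in AGHMT and 40.0% to 59.9% in CM. In E the share was only 3.65% to 7.36%. The library sizes used for scaling include these reads. The 32 genes held 661 to 1248 reads in a GHMT library, so many members rested on fewer than 10 reads there. The level of GC-rich genes relative to GC-poor ones differed between the groups. The median log2 level of the GC-rich quartile of genes minus that of the GC-poor quartile was −2.75 to −0.56 in E, −5.45 to −4.58 in GHMT, −4.20 to −3.59 in AGHMT and −2.31 to 0.47 in CM. Cardiomyocyte markers (8 genes) summed to 230 to 319 CPM (reads scaled to library size) in E, 3378 to 3640 in GHMT, 6051 to 6480 in AGHMT and 38167 to 62094 in CM. Akt1 was read at 1.31, 13.5 and 13.7 CPM in GHMT (1, 26 and 20 reads) and 7.3, 12 and 19.6 in AGHMT. It was at 104, 64.1 and 21 CPM in E and 23.8, 18.1 and 104 in CM. Its counts did not set AGHMT apart from GHMT (log2 fold change 0.34, 95% interval −1.34 to 2.02) and did not bear out the label. In E and in CM it was highest in the library with the highest GC-rich minus GC-poor value, E 1 and CM 3. The part of GC content in the Akt1 values was not tested. The group is therefore called AGHMT-labelled below. CPM values here use library sizes adjusted by the TMM method of edgeR. Differences are log2 fold changes with standard errors (SE) from edgeR's quasi-likelihood test, and a gene passed at a Benjamini-Hochberg adjusted p under 0.05 over 15059 tested genes.

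The reads of the 32 genes together made up 0.110% ± 0.0116 (SD, n = 3) of the nuclear gene reads of E, 0.102% ± 0.0271 in GHMT, 0.242% ± 0.0336 in the AGHMT-labelled libraries and 1.41% ± 0.0417 in CM. The ranges of E (0.0976% to 0.121%) and GHMT (0.0727% to 0.126%) overlapped, the AGHMT-labelled libraries (0.213% to 0.279%) lay above both, and CM (1.38% to 1.46%) above all. In bulk samples a smaller number of cells with the transcripts and fewer transcripts per cell cannot be told apart. Per kilobase of exon, the highest member was Acadl, the long-chain acyl-CoA dehydrogenase, in E (20.3 CPM per kb), GHMT (49.6) and the AGHMT-labelled libraries (96.6). In CM the highest was Acot13, a mitochondrial thioesterase, at 552 CPM per kb, with Acadl next at 425 and Acaa2, the mitochondrial 3-ketoacyl-CoA thiolase, then at 249. This ranking depends on the annotation, since length is over all annotated exons (744 bases for Acot13, 2005 for Acadl, 8730 for Hadha). By share of the members' pooled reads, without length, the highest was Hadha in E (17.4%) and CM (12.9%), Acsl3 in GHMT (17.1%) and Etfdh in the AGHMT-labelled libraries (13.7%).

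**Figure D1:**
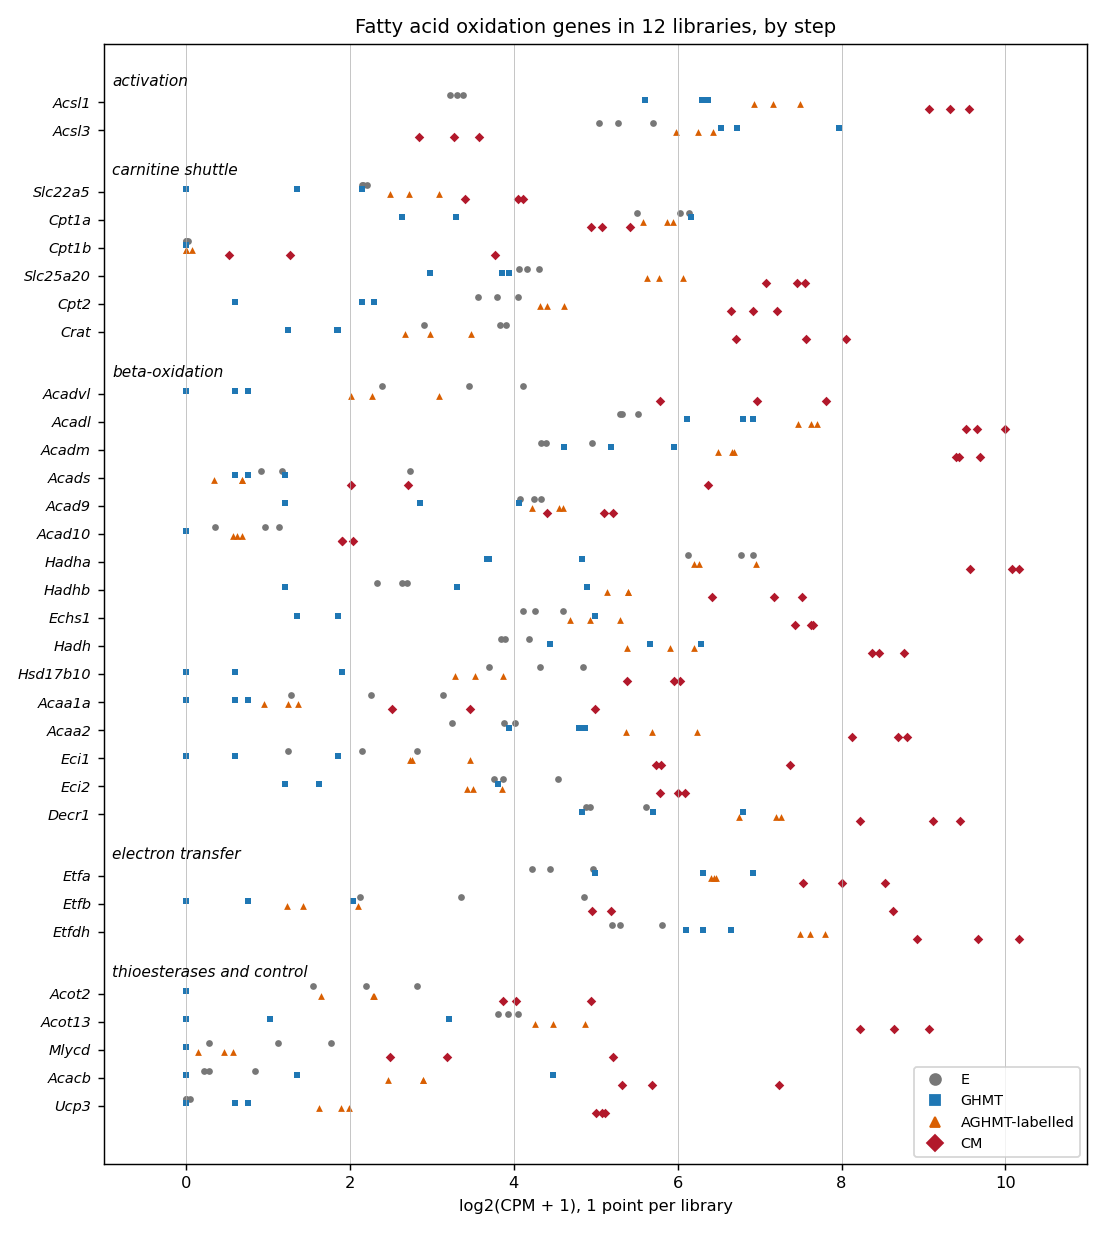
Level of each of the 32 fatty acid oxidation genes as log2(CPM + 1) (x axis) in 12 libraries, with genes in rows by step of the pathway; each point is 1 library of E, GHMT, AGHMT-labelled or CM. CM lies to the right of the other groups for most genes, Acsl3 lies to the left in CM, and GHMT libraries spread widely at low levels.

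Adult cardiomyocytes were above fibroblasts for most members. Of the 31 members that were tested, 27 were higher in CM than in E and 1, Acsl3, was lower, against 19.5% and 22.5% of all tested genes called higher and lower. The median log2 fold change was 3.56 over the members and −0.26 over all tested genes. Cpt1b did not pass the filter on low counts and was not tested. The 3 members that passed the filter but not the test were Cpt1a, Acad9, which also helps to assemble respiratory complex I, and Acaa1a, whose product is the thiolase of peroxisomes and not of mitochondria. Every CM library lay above every E library for 27 of the 31 tested members and below for 2, against 24.6% and 32.6% of all tested genes. All 8 cardiomyocyte markers had reads in CM, as in every other group. Fibroblast markers (7 genes) summed to 14030 to 14468 CPM in E and 607 to 662 in CM, smooth muscle markers (4 genes) to 1084 to 5502 and 81.3 to 300.3, endothelial markers (6 genes) to 8.01 to 9.53 and 473 to 610.2, macrophage markers (6 genes) to 11.8 to 37.4 and 77.3 to 117, and adipocyte markers (8 genes) to 7.18 to 13.9 and 516 to 1139. Of the adipocyte list Cidec, Lep and Retn were at 0 in CM, and Adipoq and Ucp1 in E. The part of these other cells in the differences was not tested.

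GHMT and E differed in both directions: 10 members were higher in GHMT and 10 lower, against 19.8% and 32.9% of all tested genes. Every GHMT library lay above every E library for 6 of the 31 tested members and below for 14, against 15.5% and 43.9% of all tested genes. The member median of −1.03 was close to that of all tested genes, −1.06. The direction went with GC content. Of the 11 members under 50% GC in their transcript, 6 were higher and 1 lower (median 0.92). Of the 20 at 50% or more, 4 were higher and 9 lower (median −2.31). With a GC correction added after seeing the data, 13 members were higher and 1, Hsd17b10, was lower. Of all 14982 genes then tested, 4670 were higher and 1791 lower. Scaling by total gene counts gave 3 higher and 18 lower. The count of higher members fell to 6 without GHMT 3, 5 without AGHMT 3 (which moves the scaling and spread only) and 4 without E 1, and that of lower members to 6 without GHMT 2. The balance of directions in GHMT thus moved with the treatment of GC content and with scaling. The GC correction also moved the medians, to 0.91 over the members and 0.25 over all tested genes. Across the 31 genes, the fold changes ran against GC content at a Spearman correlation of −0.60, a description over genes of the same libraries.

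The AGHMT-labelled libraries were above E for 12 members and below for 1, Etfb, against 21.9% and 24.6% of all tested genes, with a member median of 0.68 and −0.16 over all genes. All AGHMT-labelled libraries lay above all E libraries for 17 of the 31 tested members and below for 2 (34.8% and 36.9% of all tested genes). Of members under 50% GC 7 of 11 were higher, and of those at 50% or more 5 of 20, with medians of 1.93 and −0.18. With the GC correction 14 were higher and Etfb no longer passed, while 3282 of all 14982 tested genes were higher and 2984 lower. The medians were then 0.99 over the members and −0.06 over all tested genes. Endothelial markers summed to 61.8 to 72.0 CPM, macrophage markers to 31.4 to 45.9 and adipocyte markers to 42.6 to 51.4 in the AGHMT-labelled libraries, against 2.62 to 11.5, 1.31 to 6.19 and 3.93 to 8.25 in GHMT. The adipocyte markers Plin1, Cidec and Ucp1 were at 0 in the AGHMT-labelled libraries. In GHMT the adipocyte markers Adipoq, Plin1, Cidec, Lep, Retn and Ucp1 and the macrophage markers Adgre1, Cd68 and Cd14 were at 0. Fibroblast markers summed to 6703 to 7811 CPM in the AGHMT-labelled libraries and 3192 to 4952 in GHMT. The part of these cells in the differences was not tested. Set against GHMT, 14 members were higher in the AGHMT-labelled libraries and 0 lower (13.2% and 4.58% of all tested genes), with a median of 1.36 beside 0.63 over all genes. The groups did not overlap for 21 higher members and 1 lower member of the 31 tested (37.4% and 8.47%). At an unadjusted p under 0.05, 1 member was lower in edgeR's test, DESeq2 called 1 lower and limma 0. With the GC correction 4 were higher (Cpt2, Hadha, Hsd17b10 and Acot2) and 2 lower (Acsl3 and Hadh). Of all 14982 genes then tested, 900 were higher and 3820 lower. The medians became 0.23 over the members and −0.46 over all tested genes, so corrected folds of single genes below hold a shift of the whole set. Without the correction, the count of higher members was 9 without GHMT 2, AGHMT 1 or E 2 and 6 without AGHMT 2. The depth of GHMT, given above, was below that of every AGHMT-labelled library, and the part of depth in the difference was not tested beyond thinning.

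Against CM, both factor-treated groups were lower for nearly all tested members. CM exceeded GHMT for 29 members and was below for Acsl3 (34.7% and 23.8% of all tested genes), and Cpt1a was the 1 tested member that did not pass. CM exceeded the AGHMT-labelled libraries for 27 and was again below for Acsl3 (24.4% and 23.7%). Without overlap of libraries, CM was above GHMT for 29 of the 31 tested members and below for 1 (40.2% and 18.4% of all tested genes). It was above AGHMT-labelled for 28 and below for 2 (33.9% and 36.7%). The medians were 3.99 and 2.56, beside 0.89 and 0.05 over all tested genes. The 3 comparisons with CM share the CM libraries, and those with E share the E libraries, so they are not independent of one another.

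**Figure D2:**
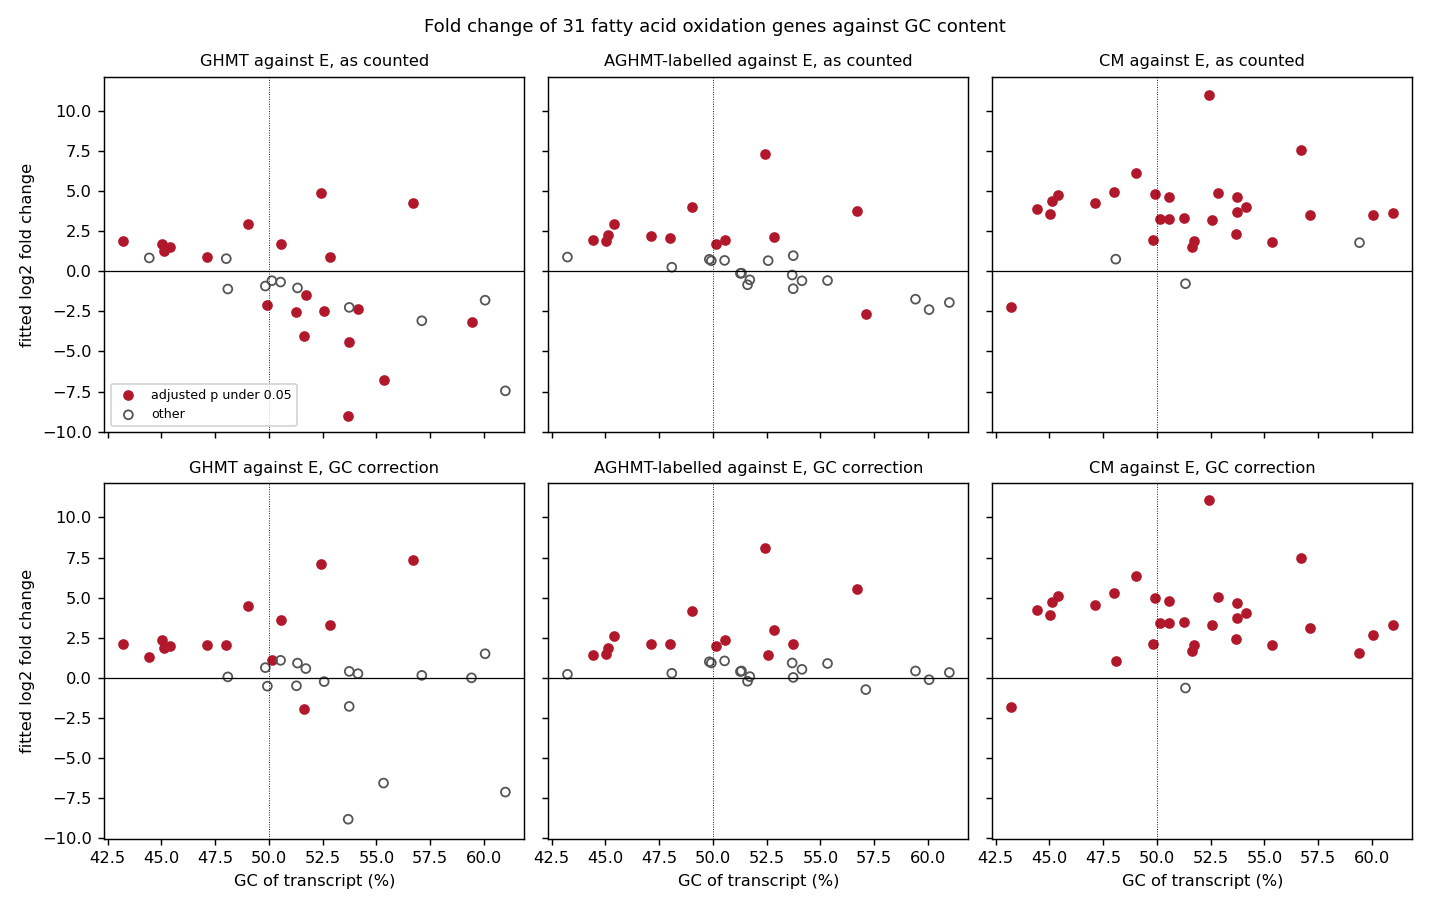
Fitted log2 fold change (y axis) of the 31 tested fatty acid oxidation genes against the GC percent of their transcript (x axis). Panels are GHMT, AGHMT-labelled and CM libraries, each against E, as counted (top) and with the GC correction (bottom). Filled points passed at an adjusted p under 0.05. In GHMT against E most points beyond 50% GC lie below 0 as counted and are spread about a median of 0.32 after correction, while in CM against E nearly all lie above 0 in both; the points at the lowest fitted values are genes without reads in GHMT, whose fitted folds are no measure of size.

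Activation of fatty acids rests on long-chain acyl-CoA synthetases, of which Acsl1 is the main isoform of heart, muscle and fat and Acsl3 is best known from lipid droplets and the endoplasmic reticulum. Acsl1 (chr8:46471037-46536051, GRCm38) was read at 8.91, 9.43 and 8.38 CPM in E, 77.3, 47.4 and 81.8 in GHMT, 121, 142 and 179 in the AGHMT-labelled libraries, and 749, 641 and 534 in CM. The 4 groups did not overlap, in the order E, GHMT, AGHMT-labelled, CM. Its log2 fold change was 2.94 (SE 0.31, adjusted p = 5.09e-06) in GHMT against E, 4.05 (SE 0.32, adjusted p = 2.75e-07) in the AGHMT-labelled libraries against E and 6.17 (SE 0.35, adjusted p = 6.47e-09) in CM against E. The first of these was 4.46 (adjusted p = 3.09e-07) with the GC correction. The step from GHMT to the AGHMT-labelled libraries, 1.10 (SE 0.29, adjusted p = 0.0191), was lost without GHMT 2, 0.89 (adjusted p = 0.0644), without AGHMT 2, 1.13 (adjusted p = 0.0616), and with the GC correction, −0.29 (adjusted p = 0.501).

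Acsl3 (chr1:78657825-78707743) was read at 32, 37.6 and 50.9 CPM in E, 249, 91.2 and 105 in GHMT, 85.7, 75.4 and 62.3 in the AGHMT-labelled libraries, and 8.69, 11 and 6.18 in CM. It was the only tested member lower in CM than in each other group: CM fell by 2.21 (SE 0.41, adjusted p = 0.000484) on the log2 scale against E, by 4.09 (SE 0.44, adjusted p = 4.18e-06) against GHMT and by 3.10 (SE 0.42, adjusted p = 6.82e-05) against the AGHMT-labelled libraries. GHMT was above E by 1.87 (SE 0.40, adjusted p = 0.0016), a call lost without E 1, 1.03 (adjusted p = 0.0593), and the AGHMT-labelled libraries lay below every GHMT library without passing the test (−0.98, 95% interval −1.82 to −0.15, adjusted p = 0.092). With the GC correction that difference passed, at −1.87 (adjusted p = 0.00405).

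The order of the 2 synthetases differed between the groups. Per kilobase of exon, Acsl1 stood to Acsl3 at a log2 ratio of −3.41 ± 0.40 (SD, n = 3) in E, −2.26 ± 0.66 in GHMT, −0.29 ± 0.51 in the AGHMT-labelled libraries and 4.97 ± 0.32 in CM. As a linear ratio this was 0.116, 0.105 and 0.0685 in E, 0.130, 0.217 and 0.324 in GHMT, 0.586, 0.783 and 1.19 in the AGHMT-labelled libraries and 35.7, 24.2 and 35.4 in CM. No 2 groups overlapped, and each of the 6 pairs gave an exact two-sided permutation p of 0.1, the smallest that 3 against 3 libraries allow, and 0.1 after Benjamini-Hochberg adjustment over the 8 ratio comparisons made. The ratio is within a library and so does not depend on scaling, although Acsl1 (49.0% GC) and Acsl3 (43.2% GC) differ in GC content. Its level within a group depends on the annotated exon lengths, 10483 and 4357 bases.

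**Figure D3:**
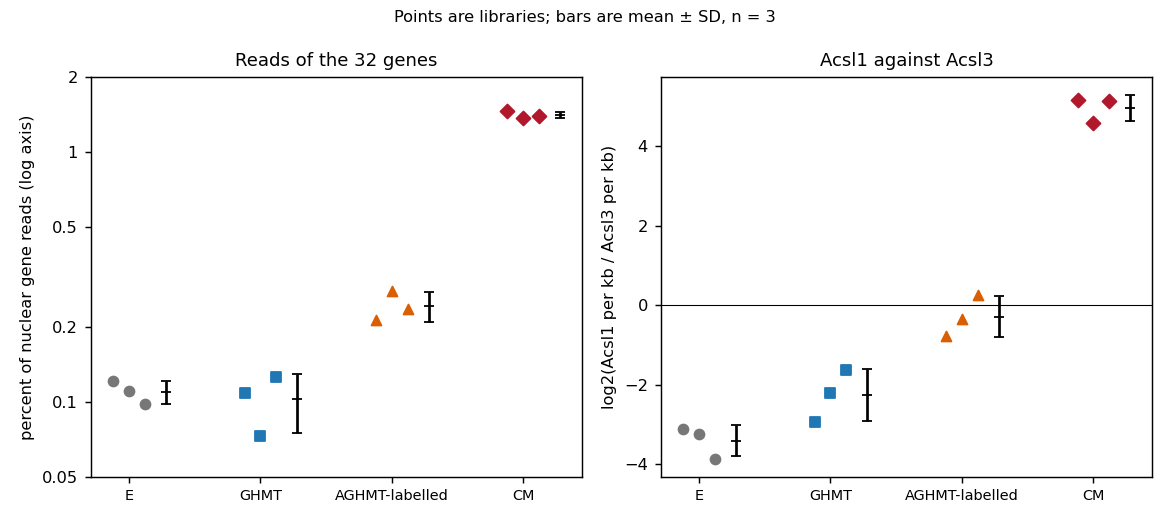
Left, reads of the 32 genes as a percent of nuclear gene reads (log axis) by group; right, log2 of the Acsl1 level per kb over the Acsl3 level per kb by group. Points are libraries and bars are mean ± SD (n = 3); the read share is near 0.1% in E and GHMT and near 1.4% in CM, and the ratio is below 0 in every E and GHMT library and above 4 in every CM library.

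The carnitine shuttle begins with carnitine palmitoyltransferase 1 on the outer membrane, the step held back by malonyl-CoA. Cpt1a encodes the liver form, also present in fibroblasts, and Cpt1b the muscle form. Cpt1a was read at 69.5, 64.2 and 44.3 CPM in E, 5.24, 8.86 and 70.8 in GHMT, 57.6, 60.6 and 46.6 in the AGHMT-labelled libraries, and 41.9, 32.7 and 29.7 in CM. CM lay below E in every library, but the difference of −0.77 (95% interval −2.07 to 0.53, adjusted p = 0.334) did not pass. It passed without GHMT 3, whose Cpt1a level was far above that of the other GHMT libraries, at −0.76 (adjusted p = 0.0458), or with the spread from CM and E alone, −0.77 (adjusted p = 0.0306). Cpt1b had 6, 14 and 74 reads in CM, 1 in E, 1 in the AGHMT-labelled libraries and 0 in GHMT, each over 3 libraries. That set CM above E 393-fold (95% counting interval 68.8 to 15678) over pooled reads, an interval that covers counting error only, with 74 of the 94 reads from CM 3. Cpt1b counts are uncertain, because 78.6% of its 50-base words also lie in Gm44502, a read-through gene of the M21 annotation at the same place, and HTSeq by default sets aside reads that fall in more than 1 gene.

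The ratio of Cpt1b to Cpt1a, per kilobase, rose by 7.56 on the log2 scale from E to CM and by 6.22 from the AGHMT-labelled libraries to CM, with an exact permutation p of 0.1 for both, the smallest possible, at 0.5 reads added to each count. With 1 read in E and 1 in the AGHMT-labelled libraries the size depends on that pseudocount, and it was 6.04 and 4.71 with 2 reads added. Even in CM the mean log2 ratio was −2.87 ± 2.64 (SD, n = 3), from −5.26 in CM 1 to −0.04 in CM 3, that is, fewer Cpt1b than Cpt1a reads per kilobase. No ratio is given where Cpt1b had no read or was at 1 read in both groups.

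The remaining shuttle genes were all higher in CM than in E. Slc25a20, the carnitine-acylcarnitine exchanger of the inner membrane, was read at 15.7, 18.9 and 16.9 CPM in E, 14.4, 13.5 and 6.87 in GHMT, 48.3, 53.7 and 66.2 in the AGHMT-labelled libraries, and 174, 186 and 134 in CM. Its CM libraries were all above the AGHMT-labelled ones, which were all above E and GHMT, while GHMT lay below E in every library without passing the test. The log2 fold changes were 1.71 (SE 0.32, adjusted p = 0.000754) for AGHMT-labelled against E, 2.29 (SE 0.35, adjusted p = 0.00125) for AGHMT-labelled against GHMT and 3.26 (SE 0.33, adjusted p = 2.18e-06) for CM against E. With the GC correction the second of these became 0.87 (adjusted p = 0.0954).

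Cpt2, which returns the acyl group to coenzyme A in the matrix, was read at 15.6, 12.9 and 10.9 CPM in E, 3.93, 0.521 and 3.44 in GHMT, 19, 23.5 and 20.2 in the AGHMT-labelled libraries, and 120.4, 99.3 and 148 in CM. GHMT, with 9 reads in 3 libraries, lay below every other group. It fell by 2.50 (SE 0.53, adjusted p = 0.00153) against E, which the GC correction took to −0.25 (adjusted p = 0.755), and the AGHMT-labelled libraries were higher than GHMT by 3.17 (SE 0.53, adjusted p = 0.00195), or 1.66 (adjusted p = 0.0314) with the correction. CM was above E by 3.22 (SE 0.41, adjusted p = 2.02e-05). Crat, the short-chain carnitine acetyltransferase, was read at 14, 13.3 and 6.48 CPM in E, 2.62, 2.61 and 1.37 in GHMT, 6.92, 10.1 and 5.4 in the AGHMT-labelled libraries, and 189, 104 and 264 in CM. GHMT, again with 9 reads, fell by 2.37 (SE 0.58, adjusted p = 0.00373) against E, with 0.25 (adjusted p = 0.706) after the GC correction. CM was above E by 4.04 (SE 0.46, adjusted p = 6.37e-06). The AGHMT-labelled libraries overlapped E, and their difference from GHMT, 1.78 (SE 0.59, adjusted p = 0.0481), was lost in 7 of the 12 fits that left out 1 library, with adjusted p-values up to 0.145, and was 0.27 (adjusted p = 0.692) with the GC correction. Slc22a5, the plasma membrane carnitine transporter, had means of 3.52 ± 0.106 CPM (SD, n = 3) in E, 1.67 ± 1.72 in GHMT, 5.92 ± 1.48 in the AGHMT-labelled libraries and 13.9 ± 3.69 in CM. It shared 26.3% of its 50-base words with other genes, chiefly Slc22a21 and Slc22a4. CM was above E by 1.98 (SE 0.57, adjusted p = 0.0111), lost without E 1, 1.81 (adjusted p = 0.0514), or E 2, 1.94 (adjusted p = 0.0556).

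The acyl-CoA dehydrogenases take the first electrons, each on its own range of chain lengths. Acadm, the medium-chain enzyme (chr3:153922357-153944632, the promoter shown above), was read at 29.9, 20.1 and 19.1 CPM in E, 35.4, 23.4 and 61.2 in GHMT, 89.4, 102 and 100.2 in the AGHMT-labelled libraries, and 822, 688 and 674 in CM. E and GHMT overlapped, the AGHMT-labelled libraries lay above both, and CM lay above those. The log2 fold change was 2.08 (SE 0.33, adjusted p = 0.000266) for AGHMT-labelled against E, 4.98 (SE 0.38, adjusted p = 1.23e-07) for CM against E and 2.90 (SE 0.34, adjusted p = 2.20e-05) for CM against AGHMT-labelled. Acadl was read at 44.9, 38.2 and 39.1 CPM in E, 121, 109.9 and 68 in GHMT, 177, 208 and 196 in the AGHMT-labelled libraries, and 803, 1021 and 734 in CM. Its 4 groups did not overlap and followed the order E, GHMT, AGHMT-labelled, CM. The change was 2.25 (SE 0.28, adjusted p = 3.02e-05) for AGHMT-labelled against E and 4.39 (SE 0.31, adjusted p = 5.19e-08) for CM against E. GHMT was above E by 1.28 (SE 0.28, adjusted p = 0.00175), a call lost without AGHMT 3, 0.73 (adjusted p = 0.0647), or E 1, 0.73 (adjusted p = 0.0703), and turned to −0.18 (adjusted p = 0.672) with total gene counts. The step from GHMT to AGHMT-labelled was 1.28 (SE 0.34, adjusted p = 0.0199) for Acadm and 0.97 (SE 0.28, adjusted p = 0.0281) for Acadl. With the GC correction these became 0.05 (adjusted p = 0.927) and −0.04 (adjusted p = 0.939). The Acadm call was lost without GHMT 1, GHMT 2 or AGHMT 2 (adjusted p from 0.0535 to 0.0694) and the Acadl call without GHMT 3, AGHMT 1, AGHMT 2 or E 2 (0.0502 to 0.103).

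The very-long-chain and short-chain dehydrogenases are richer in GC and looked different. Acadvl (53.7% GC) was read at 16.3, 9.94 and 4.25 CPM in E, 0, 0.521 and 0.687 in GHMT, 3.84, 7.49 and 3.05 in the AGHMT-labelled libraries, and 124, 54.2 and 223 in CM. CM exceeded E by 3.72 (SE 0.61, adjusted p = 0.000173). GHMT, with 2 reads in all, was below E by a pooled read ratio of 23.9-fold (95% counting interval 6.59 to 197), a difference that passed as fitted. The AGHMT-labelled libraries overlapped E. Acadvl shares 1151 exon bases with Dvl2 on the opposite strand, and whether counting used the strand is not given in the sources used here. Acads (60.1% GC) was read at 5.64, 1.25 and 0.887 CPM in E, 1.31, 0.521 and 0.687 in GHMT, 0.615, 0.606 and 0.273 in the AGHMT-labelled libraries, and 3.05, 5.54 and 81.6 in CM, with CM 3 far above the other CM libraries and an overlap of CM with E. CM against E was 3.51 (SE 1.07, adjusted p = 0.0154), and 0.72 (adjusted p = 0.456) without CM 3, 3.14 (adjusted p = 0.0685) without E 2 and 3.07 (adjusted p = 0.0574) without E 3. CM 3 was also the library with the highest GC tilt of the study, 0.47. Acad9 stayed between 7.79 ± 7.37 CPM (SD, n = 3) in GHMT and 29.9 ± 8.47 in CM and differed past the threshold only between CM and GHMT, 1.86 (SE 0.56, adjusted p = 0.0114), which the GC correction took to 0.98 (adjusted p = 0.0958). Acad10 was at 0.275 to 3.12 CPM in the other groups and had 0 reads in GHMT, against 109 pooled reads in E. With a floor of 3 pooled reads this is at least 1.12-fold lower.

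The trifunctional protein, which carries long-chain acyl-CoAs through the rest of a round, is built from the alpha subunit of Hadha and the beta subunit of Hadhb. The genes lie head to head on chromosome 5, Hadha at chr5:30118304-30155162 on the minus strand and Hadhb at chr5:30155248-30184593 on the plus strand, with the 85-base gap printed above between them. Hadha was read at 119.6, 108 and 68.9 CPM in E, 11.8, 12 and 27.5 in GHMT, 72.6, 124 and 75.7 in the AGHMT-labelled libraries, and 1081, 757 and 1149 in CM. Hadhb was read at 5.24, 4.06 and 5.5 CPM in E, 1.31, 28.7 and 8.94 in GHMT, 41, 34.1 and 41 in the AGHMT-labelled libraries, and 144, 182 and 84.3 in CM. In GHMT against E, Hadha fell by 2.51 (SE 0.40, adjusted p = 0.000185), with all 3 GHMT libraries below E, while Hadhb was higher by 1.52 (SE 0.58, adjusted p = 0.0383) with overlapping libraries. The Hadhb call rested on GHMT 2, without which it was 0.24 (adjusted p = 0.746), and it was lost in 9 of the 12 fits that left out 1 library. The Hadha value became −0.51 (adjusted p = 0.195) with the GC correction (Hadha has 51.3% GC and Hadhb 45.4%).

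In the AGHMT-labelled libraries Hadha overlapped E, while Hadhb was above E in every library by 2.97 (SE 0.56, adjusted p = 0.000947). Against GHMT, Hadha was higher by 2.39 (SE 0.40, adjusted p = 0.00195), or 0.89 (adjusted p = 0.0381) with the GC correction, and Hadhb by 1.45 (95% interval 0.24 to 2.67, adjusted p = 0.0871), which did not pass but did without GHMT 2, 2.74 (adjusted p = 0.00949), or E 1, 2.01 (adjusted p = 0.0327). CM was above E by 3.33 (SE 0.38, adjusted p = 7.34e-06) for Hadha and 4.79 (SE 0.61, adjusted p = 1.93e-05) for Hadhb. Hadhb counts are uncertain: 19.7% of its 50-base words lie in other genes, and the processed pseudogene Gm13910 on chromosome 2 took more reads than Hadhb in 9 of 12 libraries, all those outside GHMT. Gm13910 was read at 14.8, 17.5 and 14.4 CPM in E, 1.31, 8.34 and 8.94 in GHMT, 87.5, 88.5 and 86.7 in the AGHMT-labelled libraries and 457, 332 and 201 in CM. It was, like Hadhb, above E in every AGHMT-labelled library and highest in CM.

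**Figure D4:**
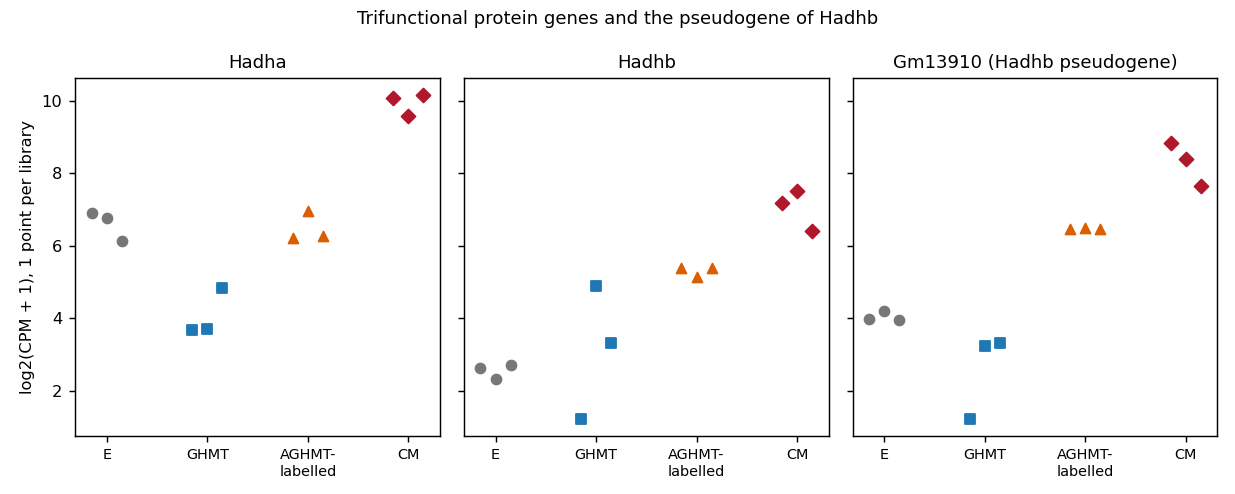
Levels of Hadha, Hadhb and the Hadhb pseudogene Gm13910 as log2(CPM + 1) (y axis) in each library of E, GHMT, AGHMT-labelled and CM. Hadha is lowest in GHMT, whereas Hadhb and Gm13910 are both higher in AGHMT-labelled libraries than in E, and all are highest in CM.

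Of the other enzymes of the round, Hadh, the 3-hydroxyacyl-CoA dehydrogenase of medium and short chains, was read at 17.3, 13.9 and 13.4 CPM in E, 49.8, 20.8 and 77 in GHMT, 40.9, 59.2 and 72.7 in the AGHMT-labelled libraries, and 349, 329.9 and 432 in CM. GHMT and the AGHMT-labelled libraries overlapped each other and both lay above E, by 1.72 (SE 0.40, adjusted p = 0.00292) and 1.96 (SE 0.39, adjusted p = 0.00139), and CM lay above E by 4.64 (SE 0.44, adjusted p = 1.10e-06). With total gene counts the first of these was 0.26 (adjusted p = 0.66) and the second 1.14 (adjusted p = 0.0663). With the GC correction the first was 3.63 (adjusted p = 1.54e-05). Echs1, the short-chain enoyl-CoA hydratase, had means of 19.3 ± 3.62 CPM (SD, n = 3) in E, 11.7 ± 16.7 in GHMT, 30.9 ± 6.91 in the AGHMT-labelled libraries and 189 ± 15.7 in CM. Only its differences from CM passed, with 3.30 (SE 0.64, adjusted p = 0.000765) against E. Hsd17b10, a dehydrogenase of short branched chains that also serves mitochondrial RNase P, was read at 27.8, 18.9 and 12 CPM in E, 0, 0.521 and 2.75 in GHMT, 10.5, 13.6 and 8.73 in the AGHMT-labelled libraries, and 61.2, 40.6 and 64.6 in CM. GHMT, with 5 reads in all, fell by 4.02 (SE 0.70, adjusted p = 0.000379) against E, and this was the only member still lower after the GC correction, −1.98 (adjusted p = 0.0171). The AGHMT-labelled libraries were above GHMT by 3.18 (SE 0.71, adjusted p = 0.00906), or 1.75 (adjusted p = 0.043) with the correction, and overlapped E. CM was above E by 1.5 (SE 0.49, adjusted p = 0.0217), a call lost without CM 1, CM 3, E 2 or E 3 (adjusted p from 0.0523 to 0.0919).

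The thiolase gene Acaa2 was read at 15.1, 13.7 and 8.5 CPM in E, 14.4, 28.1 and 26.8 in GHMT, 40.5, 74.5 and 50.6 in the AGHMT-labelled libraries, and 442, 279.7 and 411 in CM. The AGHMT-labelled libraries were above every E library, by 2.15 (SE 0.36, adjusted p = 0.000338), or 2.95 (adjusted p = 3.96e-07) with the GC correction, and CM above E by 4.92 (SE 0.40, adjusted p = 2.53e-07). GHMT overlapped E, and its call as higher, 0.93 (SE 0.37, adjusted p = 0.045), was lost in 8 of the 12 fits that left out 1 library and under each of the 3 other scalings, with −0.40 (adjusted p = 0.538) for total gene counts. With the GC correction it was 3.31 (adjusted p = 2.45e-07). The auxiliary enzymes handle double bonds already present in the fatty acid. Decr1, the 2,4-dienoyl-CoA reductase, was read at 28.6, 29.4 and 47.8 CPM in E, 51.1, 27.6 and 111 in GHMT, 153, 146 and 106 in the AGHMT-labelled libraries, and 552, 696 and 298 in CM, with the AGHMT-labelled libraries above E by 1.93 (SE 0.45, adjusted p = 0.0036) and CM above E by 3.87 (SE 0.49, adjusted p = 1.68e-05). Eci1, the main mitochondrial enoyl-CoA isomerase, was read at 6.04, 3.45 and 1.38 CPM in E, 2.62, 0.521 and 0 in GHMT, 5.69, 10.1 and 5.78 in the AGHMT-labelled libraries, and 52.4, 54.7 and 164 in CM, and CM exceeded E by 4.63 (SE 0.70, adjusted p = 8.43e-05). Eci2, an isomerase shared with peroxisomes, had means of 16.2 ± 5.39 CPM (SD, n = 3) in E and 61.5 ± 6.72 in CM, and its CM call was lost without E 2, 1.74 (adjusted p = 0.0545).

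Electrons of the acyl-CoA dehydrogenases pass through the flavoprotein subunits Etfa and Etfb to Etfdh. Etfa was read at 17.8, 20.8 and 30.2 CPM in E, 121, 78.2 and 30.9 in GHMT, 83.8, 87.3 and 85.7 in the AGHMT-labelled libraries, and 257, 369.8 and 184 in CM and Etfdh at 35.7, 38.2 and 55.2 CPM in E, 99.6, 67.7 and 78.4 in GHMT, 195, 222 and 179 in the AGHMT-labelled libraries, and 812, 1148 and 483 in CM. Both were above E in every GHMT, AGHMT-labelled and CM library. The AGHMT-labelled libraries were above E by 1.90 (SE 0.42, adjusted p = 0.0026) for Etfa and 2.21 (SE 0.33, adjusted p = 0.000167) for Etfdh, and CM by 3.56 (SE 0.45, adjusted p = 1.67e-05) and 4.24 (SE 0.36, adjusted p = 4.32e-07). GHMT was above E by 1.72 (SE 0.43, adjusted p = 0.00414) for Etfa, lost without AGHMT 3, 1.09 (adjusted p = 0.0584), or E 1, 0.89 (adjusted p = 0.124). For Etfdh the GHMT call was lost in 5 of the 12 fits that left out 1 library, and it was −0.56 (adjusted p = 0.161) with total gene counts.

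Etfb, the partner of Etfa in a heterodimer, did not follow it. Etfb was read at 28.1, 9.26 and 3.36 CPM in E, 0, 3.13 and 0.687 in GHMT, 1.69, 3.3 and 1.36 in the AGHMT-labelled libraries, and 35.4, 30.1 and 396 in CM. The AGHMT-labelled libraries were all below E, and 1 CM library was far above the other CM libraries. AGHMT-labelled libraries were lower than E by 2.67 (SE 0.96, adjusted p = 0.0338), a call lost without AGHMT 1, −2.53 (adjusted p = 0.108), AGHMT 2, −3.14 (adjusted p = 0.0514), AGHMT 3, −2.21 (adjusted p = 0.153), or E 1, −1.52 (adjusted p = 0.254), and with the GC correction, −0.74 (adjusted p = 0.313). CM was above E by 3.49 (SE 0.96, adjusted p = 0.00878), and by 1.27 (adjusted p = 0.195) without CM 3. Etfb has 57.1% GC and Etfa 45.0%, and within E the library with the most Etfb, E 1, had a GC tilt of −0.56 and that with the least, E 3, of −2.75. Also, 44.8% of the 50-base words of Etfb lie in Gm45233 or Mir7051 at the same place. The part of GC content in these values was not tested beyond the correction.

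Among thioesterases, Acot13 was read at 13, 15.6 and 14.3 CPM in E, 0, 1.04 and 8.25 in GHMT, 21.4, 28.4 and 18.2 in the AGHMT-labelled libraries, and 535, 398 and 299 in CM. CM was above all other groups, by 4.85 (SE 0.53, adjusted p = 4.44e-06) against E and 4.18 (SE 0.51, adjusted p = 2.99e-05) against the AGHMT-labelled libraries. GHMT, with 14 reads, fell by 2.08 (SE 0.61, adjusted p = 0.0109) against E, lost without GHMT 2, −1.52 (adjusted p = 0.072), and with the GC correction, −0.53 (adjusted p = 0.493). Acot2, a thioesterase of long-chain acyl-CoAs in the matrix, was read at 6.07, 3.58 and 1.93 CPM in E, 0 in every GHMT library, 3.92, 2.15 and 3.87 in the AGHMT-labelled libraries, and 13.7, 15.3 and 29.7 in CM. With 0 reads in GHMT, and a floor of 3 pooled reads, the group was at least 5.32-fold lower than E and 4.57-fold lower than the AGHMT-labelled libraries. CM was above E by 2.33 (SE 0.61, adjusted p = 0.00766). Acot2 shares 27.7% of its 50-base words with other genes, chiefly Acot1, which had 8 to 20 reads in an AGHMT-labelled library and 34 to 51 in a CM library.

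The malonyl-CoA branch holds back or frees Cpt1. Acacb, the acetyl-CoA carboxylase of the outer mitochondrial membrane, makes malonyl-CoA and was read at 0.803, 0.169 and 0.214 CPM in E, 0, 1.56 and 21.3 in GHMT, 4.53, 6.44 and 6.43 in the AGHMT-labelled libraries, and 50.7, 38.9 and 149 in CM. The AGHMT-labelled libraries were all above E, by 3.78 (SE 0.93, adjusted p = 0.00507), or 5.55 (adjusted p = 8.08e-05) with the GC correction, and CM was above E by 7.55 (SE 1.08, adjusted p = 5.40e-05). GHMT overlapped E, and its call as higher, 4.25 (SE 1.01, adjusted p = 0.00323), rested on GHMT 3, without which it was 1.32 (adjusted p = 0.434). Mlycd, which breaks malonyl-CoA down, was read at 2.41, 1.18 and 0.214 CPM in E, 0 in every GHMT library, 0.384, 0.495 and 0.109 in the AGHMT-labelled libraries, and 8.1, 4.63 and 36.1 in CM, and CM exceeded E by 3.65 (SE 0.99, adjusted p = 0.00927), again with the highest level in CM 3 (61.0% GC).

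Ucp3, an inner membrane carrier of muscle whose transcript is a well-known PPAR target (chr7:100472990-100486432, the promoter shown above), was, with Cpt1b, the member nearest to absent in E. It had 1 read in 3 E libraries and 2 in GHMT, against 27, 54 and 50 reads in the AGHMT-labelled libraries and 454, 326 and 181 in CM. In CPM this was 2.07, 2.97 and 2.73 in the AGHMT-labelled libraries and 33.7, 32.8 and 31.1 in CM, a narrow spread within each group. Over pooled reads the AGHMT-labelled libraries were above E 323-fold (95% counting interval 57 to 12853) and CM above E 4016-fold (95% counting interval 719 to 158778), intervals that cover counting error only. CM was above the AGHMT-labelled libraries by 3.64 (SE 0.56, adjusted p = 0.000192). Ucp3 passed as higher in GHMT than in E as fitted, but with 2 reads against 1 no size is given. Acaa1a, the peroxisomal thiolase, had means of 4.34 ± 3.21 CPM (SD, n = 3) in E, 1.3 ± 0.331 in the AGHMT-labelled libraries and 15.2 ± 13.7 in CM. It passed as lower in GHMT than in E and as higher in CM than in GHMT and the AGHMT-labelled libraries.

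The calls not yet given were these. Between GHMT and E, Eci2 passed as lower, −1.49 (SE 0.60, adjusted p = 0.0497), a call lost in 9 of the 12 fits that left out 1 library and at 0.57 (adjusted p = 0.415) with the GC correction. As higher in AGHMT-labelled than in GHMT there passed Acadvl and Eci1, with 2 and 3 reads in GHMT, Acot13, 2.75 (SE 0.61, adjusted p = 0.00881), Acaa2, 1.22 (SE 0.37, adjusted p = 0.0339), and Etfdh, 1.29 (SE 0.33, adjusted p = 0.018). The call of Acaa2 was lost in 4 and that of Etfdh in 3 of the 12 fits that left out 1 library, and that of Acot13 with only the 2 groups compared, 2.70 (adjusted p = 0.0873). With the GC correction none of these 5 calls was kept: Acaa2 was at −0.36 (adjusted p = 0.266), Etfdh at 0.06 (adjusted p = 0.895) and Acot13 at 1.45 (adjusted p = 0.0678), and the adjusted p was 0.134 for Acadvl and 0.169 for Eci1.

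The 11 regulators of the pathway, a list of PPAR and ERR receptors with their partners and coactivators, included 7 that passed as higher in CM than in E and 0 as lower, 6 and 2 in AGHMT-labelled against E, 2 and 2 in GHMT against E and 4 and 0 in AGHMT-labelled against GHMT. Over all tested genes 19.5% and 22.5%, 21.9% and 24.6%, 19.8% and 32.9%, and 13.2% and 4.58% were called higher and lower in these comparisons. The regulators called in GHMT against E were thus not above the share of all genes in either direction. Ppargc1a, the coactivator, was read at 0.134, 0.203 and 0.275 CPM in E, 17, 26.6 and 33 in GHMT, 94.4, 69.6 and 76.9 in the AGHMT-labelled libraries, and 174, 204 and 99.5 in CM, without overlap of any groups, and CM exceeded E by 9.61 (SE 0.52, adjusted p = 4.38e-09). Esrrb, a receptor of the ERR family, had 1 read in E and stood in CM at a pooled ratio of 1325-fold (95% counting interval 236 to 52484). In AGHMT-labelled against GHMT, Esrrg, the ERR isoform of heart and muscle, was higher by 3.84 (SE 0.69, adjusted p = 0.00298), or 3.22 (adjusted p = 0.000806) with the GC correction. Ppara, the fatty acid receptor, had 0 reads in GHMT and 37, 61 and 63 in the AGHMT-labelled libraries, at least 4.43-fold higher with a floor of 3 pooled reads.

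Of 16 further fatty acid genes, not all of them mitochondrial, CM exceeded E for 10 and was below for 3. The counts were 5 and 1 in AGHMT-labelled against E, 2 and 5 in GHMT against E, and 2 and 0 in AGHMT-labelled against GHMT. They stand beside the same shares of all tested genes. The widest differences in CM against E were those of Acss1, the mitochondrial acetyl-CoA synthetase, at 10.49 (SE 0.64, adjusted p = 1.50e-08), and of Fabp3, the cytosolic fatty acid carrier of heart, at 6.68 (SE 0.98, adjusted p = 6.61e-05). In AGHMT-labelled against GHMT, Acss1 was higher by 2.57 (SE 0.50, adjusted p = 0.00474), with 1.14 (adjusted p = 0.0693) after the GC correction, and Acsl6 had 0 reads in GHMT and was at least 3.07-fold higher. A further list held other dehydrogenases that feed the same flavoprotein and Etfbkmt, a methyltransferase of Etfb that is no dehydrogenase. Of its 6 tested genes, CM exceeded E for 4 and was below for 0, with 3 and 0 in AGHMT-labelled against E. The largest changes in CM against E were those of Ivd, the isovaleryl-CoA dehydrogenase, at 3.94 (SE 0.51, adjusted p = 2.07e-05), and of Etfbkmt, at 3.22 (SE 0.60, adjusted p = 0.000562). In GHMT against E the counts were 2 and 0, and in AGHMT-labelled against GHMT 0 and 0 in edgeR's test, with 2 and 1 at an unadjusted p under 0.05, 1 and 1 in DESeq2 and 0 and 0 in limma. For each other count of 0 given for these lists in edgeR's test, the number at an unadjusted p under 0.05, in DESeq2 and in limma was 0 or 1.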

How the data were processed

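RNA sequencing libraries of 4 groups, 3 each, were grouped by their titles. Per the labels' protocols, TRIzol was used for RNA and a stranded TruSeq kit for libraries. The submitters' processing notes name Bowtie2 2.0.6, HTSeq, DESeq and mm10. Neither the strand setting of HTSeq nor the annotation version is stated there. The deposited files hold counts of reads per gene, which were tested. A deposited table holds the normalized signal of the authors, the counts divided by a size factor per library, and served as an alternative. Of 43629 identifiers, 42462 were matched in GENCODE M21 (GRCm38, as mm10), which gave positions and exon length over all annotated exons. GC content was that of a gene's longest protein-coding transcript, or of its longest transcript where it had no coding one.

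Genes kept by filterByExpr (minimum count 10, minimum total 15) were scaled by TMM and tested with edgeR 4.0.16 in 1 robust quasi-likelihood fit of all 12 libraries, which share 1 estimate of spread, with 6 comparisons and Benjamini-Hochberg adjustment over all tested genes. Alternatives were other scalings, no filter, DESeq2 1.42.0, limma 3.58.1 on log2(deposited value + 1), a fit of only 2 groups, a replicate block, thinning to 612458 nuclear reads and each library left out. Chosen after seeing the data were a GC correction and leaving out GHMT 1, E 1 and CM 3 together. The correction fitted, per library, a lowess curve on GC (span 0.3) to log2 CPM minus the gene's mean over all 12 libraries. This curve was used as an offset and was not centred, so it also shifted the level of all genes together. GHMT 1 had 43.1% of its gene reads on mt-Nd6 and a TMM factor of 0.347, CM 3 correlated with CM 1 and CM 2 at 0.870 to 0.900 where those 2 reached 0.975 together, and E 1 was the deepest. Ratios of 2 genes use a pseudocount of 0.5 reads and an exact permutation test. Pooled read ratios have exact 95% intervals. A group without reads was set at a floor of 3 pooled reads. Libraries of a group differed beyond counting error (chi-square at least 15.0 times its degrees of freedom). Scripts were tested on simulated data.

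The members and lists were chosen with earlier results of these data known. Folds with errors are given for members that passed, and for others where the interval is needed. The rule put the largest fold of each step first, but the text follows the order of the pathway instead. From each other list the 2 largest changes among genes that passed are named in CM against E and AGHMT against GHMT, except 1 gene that is not reported here. Gm13910 was named after its values were seen.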

Additional observations from a re-analysis of the deposited data

How the results depend on the processing

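Calls where the lower group had 3 reads or fewer (for example Ucp3 against E, or Acadvl and Acot2 against GHMT) have no fold and were left out of this count. Of the other members called as different, those still called under every setting that gave an adjusted p, except thinning, were 20 of 27 in CM against E, 2 of 15 in GHMT against E, 6 of 12 in AGHMT-labelled against E, 2 of 11 in AGHMT-labelled against GHMT, 20 of 22 in CM against GHMT and 26 of 28 in CM against AGHMT-labelled. DESeq2 did not give an adjusted p for all of them: it did for 21 of the 22 in CM against GHMT and 26 of the 28 in CM against AGHMT-labelled. Over the 135 fold changes examined, other lists included, leaving out 1 library left 1529 values on the same side of the threshold, took 88 off it and put 3 past it. The shallow GHMT libraries limit every comparison that holds them.

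Signs turned with the GC correction for Acaa2 (−0.36), Acadl (−0.035), Acsl1 (−0.29) and Scd2 (−0.10) in AGHMT-labelled against GHMT, and for Crat (0.25) and Eci2 (0.57) in GHMT against E. The median over all tested genes turned as well, from 0.63 to −0.46 in the former comparison and from −1.06 to 0.25 in the latter. With total gene counts signs turned for Acaa2 (−0.40), Acadl (−0.18) and Etfdh (−0.56) in GHMT against E, and with thinning for Acaa2 in GHMT against E (−0.23) and Cpt1a in CM against E (0.45).

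The count of members higher in GHMT than in E was 10 and became 3 with total gene counts, 6 with limma, 6 with only the 2 groups compared and 2 with thinning, and 4 to 10 with 1 library left out. The count lower in GHMT was 10 and became 18 with total gene counts, 1 with thinning and 1 with the GC correction, and 6 to 14 with 1 library left out. The count higher in AGHMT-labelled than in E was 12 and became 8 with total gene counts and 3 with thinning. The calls lost with total gene counts were those of Slc25a20, 0.88 (adjusted p = 0.0707), Acaa2, 1.34 (adjusted p = 0.0502), Decr1, 1.11 (adjusted p = 0.0788), and Hadh, 1.14 (adjusted p = 0.0663). The 1 lower became 0 with TMM without mitochondrial genes, limma, the replicate block, thinning and the GC correction, 6 with total gene counts, 4 with no filter, 2 with DESeq2 and 3 with only the 2 groups compared, and 0 to 3 with 1 library left out. The count higher in AGHMT-labelled than in GHMT was 14 and became 6 with only the 2 groups compared, 8 with the replicate block, 0 with thinning and 4 with the GC correction, and 6 to 19 with 1 library left out, while 0 lower became 1 with DESeq2 and 2 with the GC correction. The 1 lower in CM than in E became 2 with only the 2 groups compared and 0 with thinning, and 1 to 2 with 1 library left out. CM exceeded E for 18 members, GHMT for 19 and AGHMT-labelled for 12 with thinning, and E for 21 with total gene counts. The 1 lower in CM than in GHMT became 0 with thinning and 2 with the GC correction, and the 1 lower in CM than in AGHMT-labelled became 2 with only the 2 groups compared and 0 with thinning. Thinning tests fewer genes at lower depth, and the 2-group fits have fewer samples; the cause of the other changes was not tested.

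Without GHMT 1, E 1 and CM 3 together, members higher and lower were 27 and 1 in CM against E, 10 and 7 in GHMT against E, 14 and 1 in AGHMT-labelled against E, 11 and 0 in AGHMT-labelled against GHMT, 29 and 1 in CM against GHMT and 28 and 1 in CM against AGHMT-labelled. Over all tested genes, higher and lower calls in GHMT against E were 2979 and 4948, and became 1110 and 8111 with total gene counts and 4670 and 1791 with the GC correction. In AGHMT-labelled against GHMT 1993 and 689 became 900 and 3820 with the GC correction, and in CM against E 2933 and 3386 became 1767 and 6009 with total gene counts and 3543 and 2535 with DESeq2 size factors. Same-numbered libraries did not deviate together (18 pairs, r from −0.72 to 0.13, 2 over 0.1). Libraries of different number could deviate together (CM 3 with E 1, r = 0.79), so this cannot settle whether the numbers pair the samples. With the replicate block the members called higher and lower were 24 and 1 in CM against E, 7 and 8 in GHMT against E, 12 and 0 in AGHMT-labelled against E, 8 and 0 in AGHMT-labelled against GHMT, 29 and 1 in CM against GHMT and 27 and 1 in CM against AGHMT-labelled. The Acsl1 to Acsl3 ratio kept its direction with 2 reads added, with the deposited values and with each library left out. It was not recomputed with thinning, where the fitted changes in GHMT against E were 2.08 for Acsl1 and 2.41 for Acsl3, the reverse order of the main values. The Cpt1b to Cpt1a ratio has no value for GHMT or between the groups other than CM, where Cpt1b had at most 1 read.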

Other observations

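Neighbouring pathways, on lists chosen with earlier results of these data known, moved as follows. Beside the counts below, the shares of all tested genes called higher and lower were 19.5% and 22.5% in CM against E, 19.8% and 32.9% in GHMT against E, 21.9% and 24.6% in AGHMT-labelled against E and 13.2% and 4.58% in AGHMT-labelled against GHMT. Of 13 tested genes of peroxisomal oxidation, CM exceeded E for 7 and was below for 0, with 6 and 5 in GHMT against E, 5 and 1 in AGHMT-labelled against E and 3 and 0 in AGHMT-labelled against GHMT, higher first. Phyh, the peroxisomal enzyme that starts the breakdown of phytanic acid, was higher in CM than in E by 5.92 (SE 0.34, adjusted p = 7.50e-09) and in AGHMT-labelled than in GHMT libraries by 2.39 (SE 0.31, adjusted p = 0.000408), or 1.37 (adjusted p = 0.0019) with the GC correction. Abcd2, a peroxisomal importer, was higher in CM than in E by 2.55 (SE 0.72, adjusted p = 0.0101), a call lost without E 1, 2.38 (adjusted p = 0.0516), or E 2, 2.43 (adjusted p = 0.0525). Ehhadh, the peroxisomal bifunctional enzyme, had 1 read in GHMT and was higher in AGHMT-labelled libraries 15.8-fold (95% counting interval 2.8 to 627). Of 9 genes of ketone and propionate use, CM exceeded E for 8 and was below for 0, with 3 and 5 in GHMT against E, 3 and 0 in AGHMT-labelled against E and 3 and 0 in AGHMT-labelled against GHMT. Mcee, an epimerase of propionate use, was higher in CM than in E by 4.28 (SE 0.72, adjusted p = 0.000231). In AGHMT-labelled against GHMT, Acat1, the acetoacetyl-CoA thiolase, was higher by 2.06 (SE 0.37, adjusted p = 0.00286), or 1.10 (adjusted p = 0.0211) with the GC correction, and Pcca, a propionyl-CoA carboxylase subunit with 1 read in GHMT, 71.2-fold (95% counting interval 12.7 to 2815).

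The opposite pathway, fatty acid synthesis, went the other way in CM: of its 7 genes 0 were higher and 6 lower than in E. Elovl6, an elongase, fell by 5.36 (SE 0.55, adjusted p = 2.58e-06) and Scd2, a desaturase, by 3.74 (SE 0.28, adjusted p = 9.62e-08). In the AGHMT-labelled libraries 2 of the 7 were above E and 4 below, and in GHMT 1 and 5. Against GHMT, 2 were higher in the AGHMT-labelled libraries: Acaca, the cytosolic acetyl-CoA carboxylase, by 2.73 (SE 0.68, adjusted p = 0.0149), a call lost without AGHMT 2, 2.61 (adjusted p = 0.0578), and with the GC correction, 1.51 (adjusted p = 0.0594), and Scd2 by 1.29 (SE 0.26, adjusted p = 0.00478), which the GC correction took to −0.10 (adjusted p = 0.732). For each count of 0 in these lists in edgeR's test, the number at an unadjusted p under 0.05, in DESeq2 and in limma was 0 or 1.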
